A study of Mus musculus with 6 samples.

Results

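Transcripts that the array names by an Ensembl transcript identifier (starting ENSMUST) or a UCSC gene identifier (starting uc0) were followed in the brains of male C57BL/6 mice aged 9 months. Members were the non-control probes whose name on the array starts with either prefix and that have a row in the deposited value table. They came to 108 of the 48436 probes of the table, 67 with Ensembl names and 41 with UCSC names. The array held 127 such probes in all, and the 19 without a row in the table (9 Ensembl, 10 UCSC) are described by their scanner signals. Each transcript was read by 1 spot per array, so no repeated spots were averaged.

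The groups were wild-type (WT) mice and APP/PS1 mice, with 3 samples each that the labels call biological replicates. APP/PS1 names a transgenic line that carries disease-linked forms of the amyloid precursor protein and presenilin genes and in which amyloid plaques form with age. The labels do not give the promoter of the transgenes, the line or the brain region. Labelled RNA was read in 1 colour on an array aimed at long non-coding RNA.

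Ensembl and UCSC both catalogue transcripts from cDNA evidence and gene prediction. Their identifiers cover coding messages, long non-coding RNAs, pseudogene transcripts and small structural RNAs alike. Long non-coding RNAs carry no long reading frame, and those studied in brain include regulators of chromatin, splicing and RNA stability. The sources used here pair none of the 127 identifiers with a gene, a position or a type of transcript, so each is given by identifier alone. Probe letters are not in the scanner files used here, and whether a probe also binds transcripts of a near-identical copy was not tested.

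Scanner signals were used for 5 of the 6 samples, all but WT replicate 3. WT replicates 2 and 3 scattered by 0.0659 (log2) over 24174 bright probes, against 0.142 to 0.164 for the other pairs within a genotype and a median of 0.0753 between repeated spots of 1 probe. Their difference was under the spot noise, so their mean served as 1 sample (WT n = 2, APP/PS1 n = 3). The barcodes of the scanned arrays start with 1 for both WT arrays and with 2 for all APP/PS1 arrays. Their second part equals the replicate number, so they may name slides or only the samples. If they name slides, the slide and the genotype cannot be told apart in any result below. The APP/PS1 arrays were brighter before scaling, with median signals of 76.4 to 87.1 against 61.4 and 62.4. Of 41 marker and transgene genes looked for by RefSeq accession, only B2m had a probe. Probes with other kinds of names could not be matched to these genes, so brain cell types and the transgenes could not be checked. B2m, which encodes a subunit of MHC class I and stood in the list for plaque-associated microglia, rose by 0.54 ± 0.07 (log2, SE, limma adjusted p = 0.0073) in the scanner signals; its part in the rises below was not tested.

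Most transcripts of both classes were detected. Of the 76 Ensembl probes on the array, between 59 and 64 were well above background on each scanned array, or 77.6% to 84.2%. Of the 51 UCSC probes, 38 to 40 were, or 74.5% to 78.4%. Over all probes the share ran from 68.0% and 69.1% on the WT arrays to 70.2%, 76.9% and 78.5% on the APP/PS1 arrays. For all probes each APP/PS1 array thus exceeded both WT arrays. The Ensembl counts were 62 and 60 on the WT arrays and 59, 62 and 64 on the APP/PS1 arrays. All 5 arrays detected 59 Ensembl and 36 UCSC probes, 77.6% and 70.6% of each class against 64.3% of all probes. No array detected 10 Ensembl and 9 UCSC probes.

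**Figure D1:**
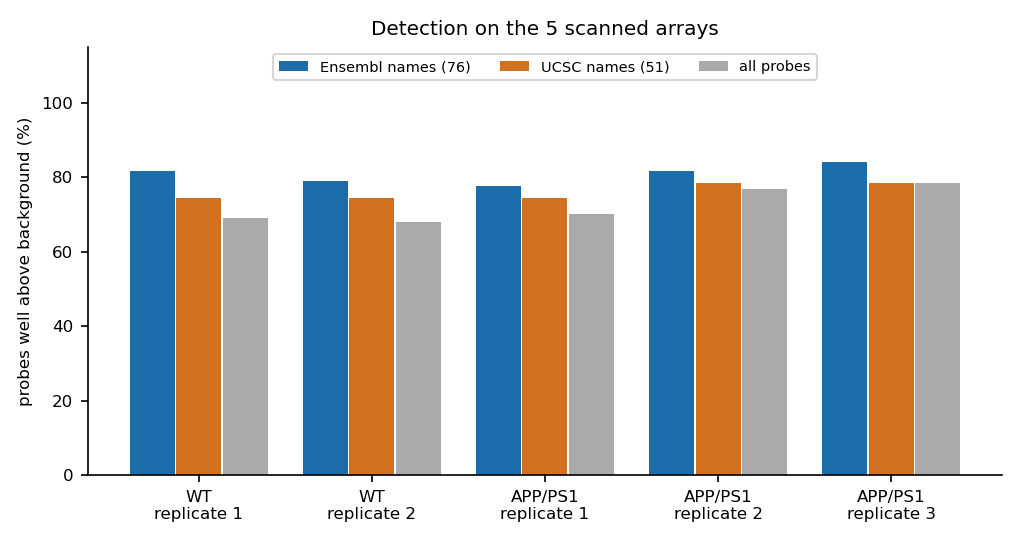
Share of probes well above background (y axis, percent) on each of the 5 scanned arrays (x axis) for Ensembl names, UCSC names and all probes. The Ensembl bars lie between 77.6% and 84.2% on every array, and the bars of all probes rise from 68.0% and 69.1% on the WT arrays to 78.5% on APP/PS1 replicate 3.

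Levels spanned nearly the whole range of the table. Mean log2 values over the 6 samples ran from 2.72 to 16.88 for Ensembl names, with a median of 9.22 and quartiles of 6.42 and 13.55. UCSC names ran from 3.82 to 17.56, with a median of 7.52 and quartiles of 6.04 and 9.88. All probes had a median of 7.05 and quartiles of 5.24 and 9.51. A level over 15 was held by 11 Ensembl and 3 UCSC transcripts, 16.4% and 7.32% of each class, beside 2.63% of all probes. Brightness also depends on the probe, so these values give no order of RNA amounts between transcripts.

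The brightest transcripts came from both classes. uc009vfa.1 had the highest mean, with values of 17.38, 17.41 and 17.38 in WT and 17.86, 17.64 and 17.69 in APP/PS1. The groups did not overlap, but the log2 change of 0.34 ± 0.09 (SE) did not pass the threshold (limma adjusted p = 0.0521). uc009vgv.1 had 17.42, 17.48 and 17.41 in WT and 16.95, 17.13 and 17.25 in APP/PS1. It too had groups that did not overlap, here with APP/PS1 below WT, and its change of -0.32 ± 0.11 (SE) did not pass (limma adjusted p = 0.0894). Among Ensembl names the highest means belonged to ENSMUST00000078729, ENSMUST00000075682 and ENSMUST00000118258, whose changes were 0.24, 0.29 and 0.24. Of these 3, ENSMUST00000075682 passed the threshold (limma adjusted p = 0.0405).

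The comparison of genotypes asked which of these transcripts differ between WT and APP/PS1 brain. Among the 67 Ensembl names, 16 rose, 4 fell and 47 did not pass an adjusted p of 0.05 in limma. Among the 41 UCSC names, 10 rose, 5 fell and 26 did not pass. Of all probes tested, 30.1% were called, 14.2% as rises and 15.9% as falls. The called share was thus 29.9% of Ensembl names, near the background, and 36.6% of UCSC names. Rises made up 23.9% of the Ensembl and 24.4% of the UCSC names, and falls 5.97% and 12.2%. The 142 other probes of the same custom probe set, which carry RefSeq or GenBank names, had 34 rises and 22 falls, or 23.9% and 15.5%. The share of rises was thus alike over the custom set and not particular to these 2 classes.

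The classes differed in their middle. Ensembl names had a median log2 change of 0.19, with 43 positive and 24 negative, while UCSC names had a median of -0.00333, with 20 positive and 21 negative. The median over all probes was -0.0317. Whether this difference between classes exceeds chance was not tested, because transcripts on the same arrays are not independent. The median absolute change was 0.292 and 0.343 for Ensembl and UCSC names, beside 0.31 for all probes. Of the changes past the threshold, 11 of the 20 Ensembl calls and 8 of the 15 UCSC calls were under 1.5-fold. So were 7081 of the 14593 calls over all probes. Only 3 Ensembl calls and 1 UCSC call reached 2-fold. Of all probes, 5.63% were called at 2-fold or more. The groups did not overlap for 30 Ensembl and 17 UCSC names that were higher in APP/PS1 and for 17 and 12 that were lower, where 25.8% of all probes were higher and 30.6% lower without overlap.

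The counts rest on few samples. Leaving out WT replicate 2 or 3 gave 19 or 20 Ensembl calls and 15 or 14 UCSC calls, where 29.7% or 29.3% of all probes were called. Leaving out WT replicate 1 is unlike this, as the mean of replicates 2 and 3 is then the only WT sample. Without WT replicate 1 the Ensembl calls fell to 7 and the UCSC calls to 6, and 12 of the 35 calls were kept. These are 10.4% and 14.6% of the classes, where 11.8% of all probes were then called. Leaving out APP/PS1 replicate 1, 2 or 3 gave 12, 11 or 13 Ensembl calls and 12, 9 or 10 UCSC calls, where 18.9%, 15.3% or 15.8% of all probes were called. No call turned direction in any alternative fit of the value table. With WT replicates 2 and 3 apart there were 38 Ensembl calls (27 rises, 11 falls) and 23 UCSC calls (14 rises, 9 falls). That is 56.7% and 56.1% of the classes, where 41.8% of all probes were called, 19.4% as rises and 22.4% as falls.

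**Figure D2:**
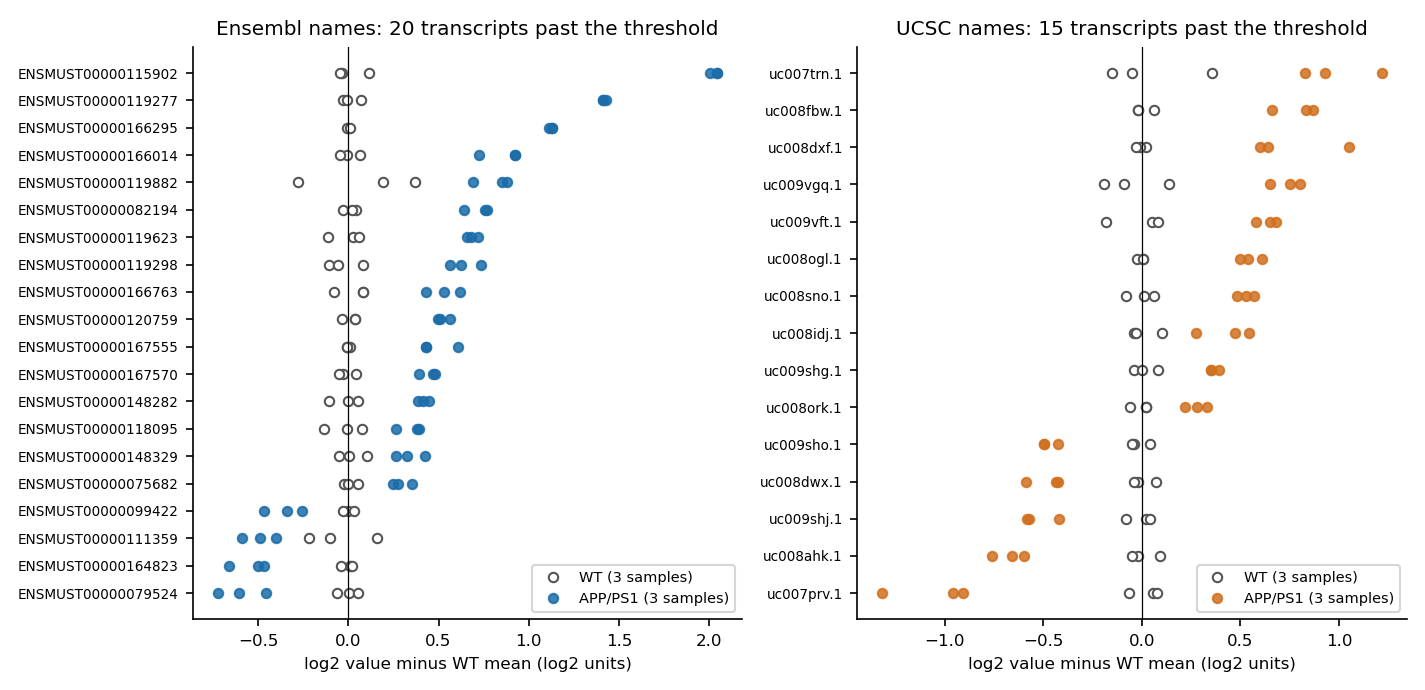
Log2 value of each sample minus the WT mean (x axis, log2 units; the WT mean is that of replicate 1 and of the average of replicates 2 and 3) for the 20 Ensembl and 15 UCSC transcripts past the threshold (y axis). Open points are the 3 WT samples and filled points the 3 APP/PS1 samples; the groups do not overlap for any transcript, and ENSMUST00000115902 stands furthest out, 2.03 above WT.

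The largest rises, all over 2-fold, were those of 3 Ensembl transcripts. ENSMUST00000115902 had log2 values of 6.66, 6.81 and 6.65 in WT and 8.70, 8.74 and 8.74 in APP/PS1. All APP/PS1 samples lay far above all WT samples, at 8.73 ± 0.02 (SD, n = 3) against 6.70 ± 0.05 (SD, n = 2). It rose 4.09-fold (log2 change 2.03 ± 0.06 SE, limma adjusted p = 0.000773).

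ENSMUST00000119277 had 10.93, 10.95 and 11.03 in WT and 12.37, 12.37 and 12.39 in APP/PS1. The gap between the groups was many times the spread within either. It rose 2.67-fold (log2 change 1.42 ± 0.06 SE, limma adjusted p = 0.00155). ENSMUST00000166295 had 11.05, 11.04 and 11.06 in WT and 12.18, 12.16 and 12.18 in APP/PS1. Its groups were likewise tight and apart, and it rose 2.18-fold (log2 change 1.12 ± 0.06 SE, limma adjusted p = 0.00206). In the scanner signals these 3 transcripts had changes of 2.05, 1.47 and 1.14, each past the threshold. The lowest change of ENSMUST00000115902 over all alternatives was 1.24, under the normexp background correction, and those of the other two were 1.38 and 1.05.

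ENSMUST00000166014, a bright transcript, had 15.77, 15.84 and 15.73 in WT and 16.70, 16.50 and 16.70 in APP/PS1. It rose 1.81-fold (log2 change 0.86 ± 0.09 SE, limma adjusted p = 0.00696). ENSMUST00000082194, also bright, had 15.94, 16.01 and 15.99 in WT and 16.74, 16.61 and 16.73 in APP/PS1. The lowest APP/PS1 sample of each was above the highest WT sample by more than the range within WT. The rise of ENSMUST00000082194 was 1.65-fold (log2 change 0.72 ± 0.08 SE, limma adjusted p = 0.00669).

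ENSMUST00000119882 was dim, with 4.59, 5.06 and 5.24 in WT and 5.75, 5.72 and 5.56 in APP/PS1. The WT samples were spread more widely than the APP/PS1 samples, but the groups did not overlap. Its log2 change was 0.81 ± 0.19 (SE, limma adjusted p = 0.0384), and under the normexp correction of the scanner signals it turned to -0.21. The other 10 rises among Ensembl names were smaller, from 0.29 for ENSMUST00000075682 to 0.68 for ENSMUST00000119623. ENSMUST00000119298, ENSMUST00000166763 and ENSMUST00000120759 lay between, at 0.64, 0.53 and 0.52. The lowest APP/PS1 value was above the highest WT value in each of these 10.

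The 4 Ensembl falls were all under 2-fold. ENSMUST00000079524 had 6.98, 7.03 and 6.91 in WT and 6.37, 6.52 and 6.25 in APP/PS1, and fell by 0.595 on the log2 scale (SE 0.10, limma adjusted p = 0.0177). ENSMUST00000164823 had 9.01, 8.96 and 9.02 in WT and 8.34, 8.53 and 8.50 in APP/PS1, and fell by 0.54 (SE 0.09, limma adjusted p = 0.015). In both, the WT samples were close together and every APP/PS1 sample was lower.

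ENSMUST00000111359 had 8.66, 8.40 and 8.28 in WT and 8.10, 7.91 and 8.01 in APP/PS1, and fell by 0.49 (SE 0.13, limma adjusted p = 0.0478). ENSMUST00000099422 had 6.78, 6.81 and 6.75 in WT and 6.52, 6.44 and 6.31 in APP/PS1, and fell by 0.36 (SE 0.09, limma adjusted p = 0.0421). The fall of the last rests on the scaling between arrays. Its signals before scaling were 93.6 and 94.4 on the WT arrays and 94.3, 100.7 and 91.6 on the brighter APP/PS1 arrays, so there the groups overlapped. Larger negative changes that did not pass were those of ENSMUST00000111365 at -0.74 ± 0.21 (SE, limma adjusted p = 0.0568), ENSMUST00000155337 at -0.68 ± 0.21 (SE, limma adjusted p = 0.0741) and ENSMUST00000142032 at -1.78 ± 0.54 (SE, limma adjusted p = 0.0698).

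Among UCSC names uc007trn.1 had the largest rise past the threshold. Its values were 5.27, 5.37 and 5.78 in WT and 6.35, 6.64 and 6.25 in APP/PS1. The groups were apart, though WT replicate 3 lay above the other WT samples. The rise was 1.99-fold, with a log2 change of 0.99 ± 0.16 (SE, limma adjusted p = 0.0168), and it was 0.12 under the normexp correction of the scanner signals, which did not pass.

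uc008fbw.1, one of the brightest transcripts, had 15.31, 15.39 and 15.31 in WT and 16.16, 15.99 and 16.20 in APP/PS1. It rose 1.73-fold (log2 change 0.79 ± 0.09 SE, limma adjusted p = 0.00798). uc008dxf.1 had 6.43, 6.40 and 6.38 in WT and 7.46, 7.01 and 7.05 in APP/PS1. Here APP/PS1 replicate 1 was higher than the other APP/PS1 samples, and the log2 change was 0.76 ± 0.16 (SE, limma adjusted p = 0.0302). uc008ogl.1 had 12.93, 12.90 and 12.93 in WT and 13.46, 13.42 and 13.53 in APP/PS1, a change of 0.55 ± 0.07 (SE, limma adjusted p = 0.00919).

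The other named rises were dim. uc009vgq.1 had 4.55, 4.22 and 4.32 in WT and 5.06, 5.21 and 5.16 in APP/PS1, a change of 0.73 ± 0.11 (SE, limma adjusted p = 0.0143). It was well above background on 1 of the 2 scanned WT arrays and on all 3 APP/PS1 arrays. uc009vft.1 had 5.68, 5.45 and 5.71 in WT and 6.31, 6.28 and 6.21 in APP/PS1, a change of 0.64 ± 0.07 (SE, limma adjusted p = 0.00799). Under the normexp correction of the scanner signals these changes turned to -0.20 and -0.01. The remaining UCSC rises were uc008sno.1, uc008idj.1, uc009shg.1 and uc008ork.1, at 0.53, 0.43, 0.36 and 0.28.

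uc007prv.1 was the only UCSC transcript called at 2-fold or more. It had 7.68, 7.80 and 7.82 in WT and 6.79, 6.43 and 6.84 in APP/PS1. Every APP/PS1 sample was lower than every WT sample, with the wider spread in APP/PS1. It was 2.08-fold lower in APP/PS1, with a log2 change of -1.06 ± 0.15 (SE, limma adjusted p = 0.0125), and its change stayed between -1.14 and -0.81 over all alternatives. uc008ahk.1 had 10.77, 10.88 and 10.74 in WT and 10.19, 10.13 and 10.03 in APP/PS1, and fell by 0.67 (SE 0.08, limma adjusted p = 0.00801).

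The other 3 UCSC falls were close in size. uc009shj.1 had 7.80, 7.70 and 7.82 in WT and 7.21, 7.20 and 7.36 in APP/PS1, and fell by 0.52 (SE 0.08, limma adjusted p = 0.0145). Before scaling, its signals were 191 and 179.9 on the WT arrays and 152.3, 169.2 and 185.7 on the APP/PS1 arrays, so there the groups overlapped. uc008dwx.1 fell by 0.48 (SE 0.08, limma adjusted p = 0.0172), from 8.42 to 8.53 in WT to 7.87 to 8.03 in APP/PS1. uc009sho.1 fell by 0.47 (SE 0.07, limma adjusted p = 0.0127), from 8.77 to 8.86 in WT to 8.32 to 8.39 in APP/PS1.

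Bright Ensembl transcripts moved mostly upward, and so did those at levels from 5 to 8. The band of mean values of 15 or more was chosen after the values were seen, so its counts are a description. Of the 11 Ensembl names in it, 6 rose and none fell in the value table, where limma called 16.3% of all probes of that level as rises and 17.5% as falls. Their changes were positive in 10 of 11, with a median of 0.292, beside -0.0142 for all 1276 probes of that level. The exception was ENSMUST00000119184 at -0.14, which did not pass. Of the 11, 9 had an unadjusted p under 0.05 in limma, each with a positive change, as did 653 of the 1276 probes of that level in either direction.

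In the scanner signals 9 of these 11 rose and none fell, where 28.8% of probes of that level rose and 6.58% fell. Under quantile normalization 7 rose, under median centring 6 and under normexp 8, again with no fall. Of all probes of that level, 18.7%, 15.2% and 27.2% rose under these settings and 16.5%, 8.07% and 1.25% fell, so that falls were rare in general under normexp. Without WT replicate 1, limma called 2 rises among them in the value table, and without APP/PS1 replicate 2 also 2, where 4.70% and 6.19% of all probes of that level rose. Among Ensembl names at levels from 12 to 15 the pattern was not seen: 1 of 11 rose, none fell, and the median change was -0.0208, where 18.9% of the 4178 probes of that level rose, 19.9% fell and the median was -0.0104. At levels from 5 to 8, by contrast, 11 of 15 Ensembl names had positive changes, with a median of 0.346. Of these 15, 4 rose and 2 fell, where 13.4% of all probes of that level rose and 15.4% fell. At 8 to 12, 13 of 21 were positive, with 5 rises and 2 falls, where 18% of all probes rose and 22.6% fell. Under 5, 4 of 9 were positive and 0 passed the threshold, where 8.76% of all probes rose and 6.63% fell. Of the 3 UCSC names at 15 or more, uc008fbw.1 rose and uc009vfa.1 and uc009vgv.1 did not pass.

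**Figure D3:**
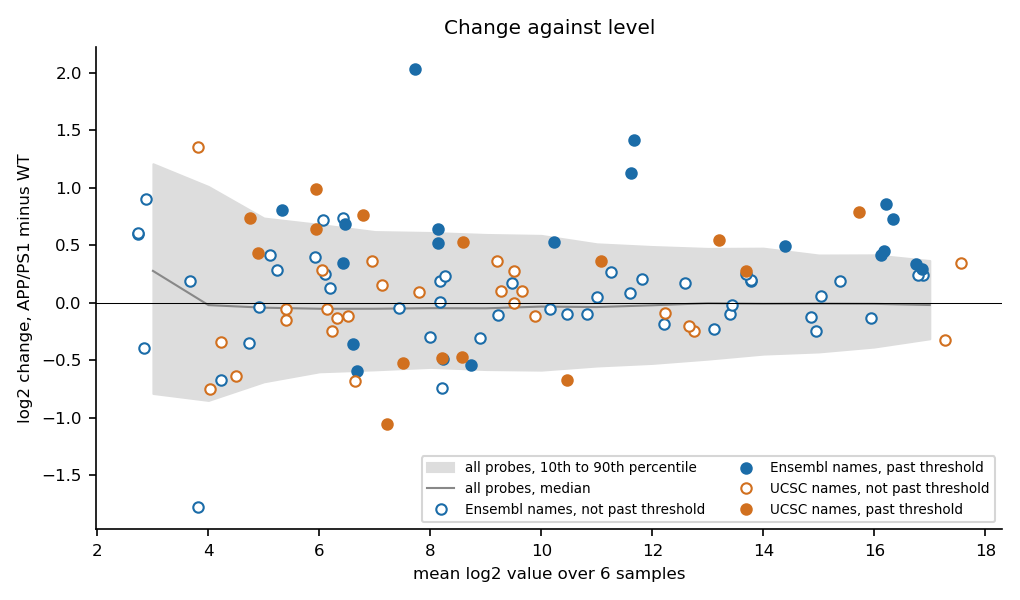
Log2 change, APP/PS1 minus WT (y axis), against the mean log2 value over the 6 samples (x axis) for the 67 Ensembl and 41 UCSC transcripts, filled where past the threshold, over the 10th to 90th percentile (grey) and median (line) of all probes. At mean values of 15 or more, 10 of 11 Ensembl points lie above 0, while the median of all probes stays near 0.

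No transcript of either class was well above background on every array of 1 genotype and on none of the other. Some came near that. uc009vfx.1 was detected on 2 of 3 APP/PS1 arrays and on neither WT array scanned. Its mean APP/PS1 signal was 1.27-fold above the detection limit of the WT arrays. Without APP/PS1 replicate 2 this ratio was 1.03-fold, so it rests on that array. In the table it had 4.14, 2.44 and 2.43 in WT and 4.12, 5.22 and 4.57 in APP/PS1. WT replicate 1 overlapped the APP/PS1 samples, and the change of 1.35 ± 0.62 (SE) did not pass (limma adjusted p = 0.167).

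ENSMUST00000142032 was above background on 1 of 2 WT arrays and on no APP/PS1 array. Its mean WT signal was 1.48-fold above the detection limit of the APP/PS1 arrays. This ratio rests on WT replicate 1, whose signal was 43.3. WT replicate 2, at 9.496, lay within the APP/PS1 signals of 8.38, 12.85 and 10.45. Without replicate 1 the WT signal was below that limit. Its table values were 5.71, 3.74 and 4.22 in WT and 3.12, 3.22 and 2.86 in APP/PS1. uc008idl.1, which has no row in the table, was above background on WT replicate 2 alone, with signals of 17.2 and 36.9 on the WT arrays and 4.38, 7.95 and 4.84 on the APP/PS1 arrays. Its mean WT signal was 1.84-fold above the detection limit of the APP/PS1 arrays, a value that rests on that 1 array. The detection limit of an array is its dimmest signal that counts as well above background. Such a ratio divides the brighter group's mean by that of the dimmer one, with each dim array raised, where lower, to its limit. It is not a lower bound on the change, since an undetected array of the brighter group enters at its own signal.

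ENSMUST00000158035, ENSMUST00000105535 and ENSMUST00000118603 lay at the lowest value of the table in all 3 WT samples, 2.41, 2.44 and 2.43. In APP/PS1 each was above background on 1 of 3 arrays, and none passed the threshold. ENSMUST00000096847 and uc009swj.1 were likewise above background on 1 APP/PS1 array and no WT array, with table changes of 0.19 and -0.75 that did not pass (limma adjusted p = 0.678 and 0.107), the second in the opposite direction. The other 18 transcripts without a row in the table were not well above background on any of the 5 arrays, so neither genotype gave a level for them. In the scanner fit, which needs detection on at least 2 arrays, 61 Ensembl and 40 UCSC names were tested, and all of these have a row in the table.

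The scanner signals and the value table come from the same arrays and gave close changes. Of the transcripts in both fits, 95 had the same sign in both, and the 6 with opposite signs did not pass in either. In the scanner signals 21 Ensembl names rose and 5 fell, and 9 UCSC names rose and 5 fell, where 32.7% of all probes were called, 18.1% as rises and 14.6% as falls. Of the 35 calls of the value table, 34 passed in the scanner signals too; uc008ork.1 did not, with a limma adjusted p of 0.0564. Another 6 Ensembl names passed in the scanner signals alone: ENSMUST00000078729, ENSMUST00000118258, ENSMUST00000118709, ENSMUST00000121804 and ENSMUST00000131242 as rises and ENSMUST00000121099 as a fall.

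**Figure D4:**
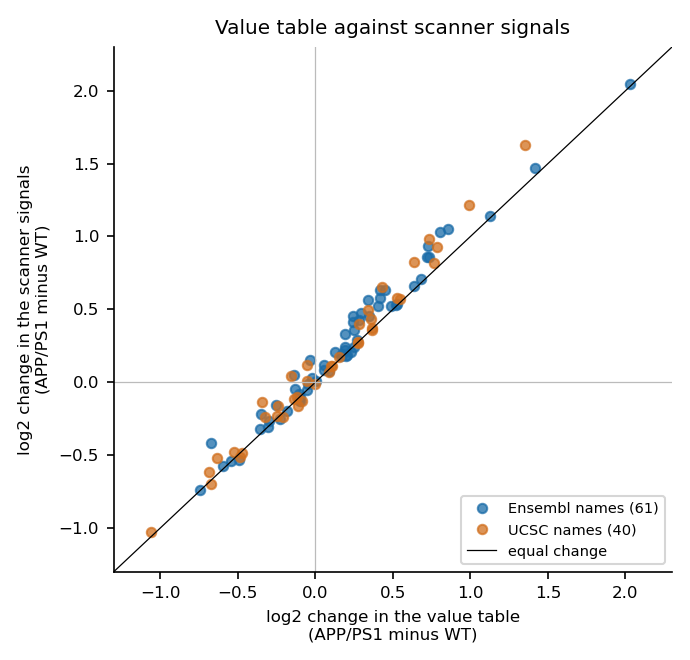
Log2 change, APP/PS1 minus WT, in the scanner signals (y axis) against that in the value table (x axis) for the 61 Ensembl and 40 UCSC transcripts in both fits, with the line of equal change. Points lie along the line, and the scanner change exceeded the table change by a median of 0.0342.

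The calls that were kept in every alternative fit of the value table at the adjusted threshold were 7 of the 20 Ensembl and 4 of the 15 UCSC calls. They were ENSMUST00000115902, ENSMUST00000119277, ENSMUST00000166295, ENSMUST00000166014, ENSMUST00000082194, ENSMUST00000119623 and ENSMUST00000119298, and uc008fbw.1, uc009vft.1, uc008ahk.1 and uc008sno.1. Of these 11, only uc008ahk.1 fell. How many calls over all probes were kept in this way was not counted, so no background stands beside these numbers. In the scanner signals 0 of 26 Ensembl and 0 of 14 UCSC calls were kept in every alternative, where the replicate block called 0 of all probes. ENSMUST00000119623 and uc009vft.1 lie below the table's median level and were not tested in the fit that keeps probes above it.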

How the data were processed

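Per the labels' protocols, total RNA was extracted with Trizol, depleted of ribosomal RNA and made into Cy3-labelled cRNA by random priming. The submitters' processing notes name Agilent Feature Extraction 11.0.1.1; its output gives the intensity of each spot, per the file headers, on a design for mm9. The authors also deposited log2 values, with a median of 7.06 in each scanned sample's column; how these were normalized is not stated in the sources used here. Those columns correlated with each array's log2 signal at 0.99965 or more. The small number of arrays limits precision.

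Rows were tied to probes by spot number. Genotypes were compared with lmFit and eBayes of limma 3.58.1 under R 4.3.3 (two-sided, Benjamini-Hochberg over all 48436 probes, threshold 0.05), with APP/PS1 minus WT as the direction. From each array's log2 processed signal its 75th percentile was subtracted, and these values were tested for 45630 probes above background on at least 2 arrays; no spot was saturated. The scanner file of WT replicate 1 holds rounded signals. The fit was also run on simulated data with independent noise and no slide effect, so that run cannot speak to slide and genotype. Replicate numbers do not pair the samples. The first part of the barcode splits the arrays by genotype, so it could not be a block.

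Named transcripts are, per class, the 6 largest rises and falls past the threshold without overlap, those above background on every array of 1 genotype and none of the other (there were none), and the 3 highest means (the transcripts without a table value were in no fit, so none was named by its p); transcripts just outside the threshold or near the detection limit were named after their values were seen. The members, lists and rules were chosen with earlier results of these data known. The p-values and SEs of limma rest on the spread between these samples, which eBayes draws toward the spread typical of all probes. An error of ± is an SE or SD as stated.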

Additional observations from a re-analysis of the deposited data

How the results depend on the processing

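In the value table, 14593 calls over all probes, 20 among Ensembl and 15 among UCSC names became 3226, 4 and 1 with an unadjusted p of 0.05 and a 2-fold change, and leaving out 1 sample gave 5725 to 14380, 7 to 20 and 6 to 15. With WT replicates 2 and 3 apart there were 38 Ensembl and 23 UCSC calls, and with a trended, robust prior 34 Ensembl calls. Under that prior 50.7% of the Ensembl names were called, where 36.8% of all probes were. The other settings stayed within 1.5 times. In the scanner signals, 14903, 26 and 14 calls became 7844, 17 and 9 with normexp, which moved the median change of all probes from 0.0386 to -0.2233, and 3563, 5 and 2 with the 2-fold rule. Leaving out 1 sample gave 7644 to 10474, 13 to 17 and 9 to 13; where 1 WT sample remained, its spread was taken from the APP/PS1 samples. Of the scanner calls over all probes, 8261 were rises and 6642 falls, against 6031 and 7934 with median centring and 7069 and 7871 with quantile normalization. With normexp, 4 UCSC names rose and 5 fell, and the changes of ENSMUST00000119882, uc009vft.1 and uc009vgq.1 turned to -0.21, -0.01 and -0.20. The normexp setting adds an offset of 50 to each signal, and the processed signals of these transcripts ran from 13.84 to 90.8. The cause of the turns was not tested.

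With the replicate block, limma called 15417 probes in the value table (WT replicates 2 and 3 apart), 19 Ensembl and 16 UCSC names among them. In the scanner signals the block left 1 residual degree of freedom and limma called 0 probes, 0 Ensembl and 0 UCSC names, where 15363, 25 and 15 had an unadjusted p under 0.05. Same-numbered samples did not deviate together (correlations 0.0503, -0.0777 and 0.0115 over bright probes). Signal near background limits what can be said of the dim transcripts.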

Other observations

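Of 12 groups of UCSC identifiers that share their first 7 characters and have at least 2 members in the table, 5 had changes of a single sign and 7 of both signs. Those of a single sign were uc009vf (3 members) and uc008id (2), all positive, and uc007pr, uc008ah and uc009sw (2 each), all negative. No test was made of this tally. The files do not tell whether such neighbours share a locus. Of the 6 names starting uc009sh, uc009shg.1 rose by 0.36 and uc009shj.1 and uc009sho.1 fell by 0.52 and 0.47, while uc009shf.1, uc009she.1 and uc009shi.1 stood at -0.00333, 0.105 and 0.15 (log2), none past the limma threshold. uc007trn.1 rose by 0.99, and uc007trc.1 had a change of -0.68 that did not pass (limma adjusted p = 0.103). In the group uc008dx, uc008dxf.1 rose by 0.76 and uc008dxc.1 had -0.21, and in uc008dw, uc008dwx.1 fell by 0.48 and uc008dww.1 had 0.28; neither uc008dxc.1 nor uc008dww.1 passed. The grouping by first letters was made after the values were seen.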
